A study of Homo sapiens with 12 samples.

Results

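The genes described here are the 10 members of the MYC, MAX and MXD network named MYC, MAX, MXD1, MXD3, MXD4, MXI1, MNT, MGA, MLX and MLXIP. They were chosen by symbol, with earlier results of these data known, and make up 10 of the 19647 genes in the deposited table. For each member the deposited counts and FPKM values of all its Ensembl transcripts were summed. All 10 passed the filter on low values, an FPKM of at least 1 in 3 or more of the 12 libraries. FPKM is the number of fragments scaled to the length of the transcript and to the depth of the library, so it allows levels to be compared between genes. CPM, the count scaled to depth alone, is used to compare 1 gene between libraries.

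The study sequenced enriched mRNA of A549, an established human lung adenocarcinoma cell line, after the level of NR0B1 (DAX1), an orphan nuclear receptor known mainly as a corepressor, had been raised or lowered. There were 4 groups of 3 libraries: cells with the genotype NR0B1 overexpression, their controls labelled WT-overexpression control, cells with the genotype NR0B1 knockdown, and their controls labelled WT-knockdown control. No group received a further treatment, and the titles of the knockdown arm carry the prefix sh. The vectors, the hairpin sequences, whether the lines were clones or pools, and whether replicates were separate cultures were not given in the sources used here, so p-values measure only the spread between these libraries, which may be technical.

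MYC is a basic helix-loop-helix leucine zipper transcription factor that binds DNA only as a dimer with MAX, mostly at the E-box CACGTG, and activates genes of ribosome production, metabolism and growth. MXD1, MXD3, MXD4, MXI1 (also called MXD2), MNT and MGA also pair with MAX and bind the same sequence, where the MXD proteins, MXI1 and MNT recruit the SIN3 histone deacetylase corepressor and MGA acts with a Polycomb complex. MLX is a second common partner, shared by MXD1, MXD4 and MNT and by the glucose-responsive activator MLXIP (MondoA).

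The libraries held between 15049011 and 22797076 estimated counts in Ensembl transcripts and assembled transcripts together. NR0B1 itself was 1.99-fold higher with overexpression, at 98.9, 81.8 and 84.2 CPM against 17.9, 60.1 and 55.2 in the controls, and this did not pass (edgeR quasi-likelihood test, adjusted p = 0.0912), although the groups did not overlap. In the knockdown it fell by 2.06 on the log2 scale, from 16.3, 21.1 and 13.3 to 2.99, 3.31 and 5.84 CPM (adjusted p = 0.00593). Overexpression control replicate 1 stood apart from the other controls of its group, with correlations of log2 CPM of 0.940 and 0.935 to them against 0.976 between them, and knockdown replicate 2 did so with 0.923 and 0.900 against 0.959. Where leaving out either or both of these 2 libraries changes the call of a member in an arm, the value without them is given too, and leaving both out was an alternative chosen after seeing the data. All 11 A549 markers examined passed the filter, with KRT8 between 590 and 1411 FPKM and EPCAM low, between 0.23 and 2.60 FPKM. Among 10 markers of other cell types, CD14 and PMEL passed the filter, CD3E was listed at 0 in every library, and the summed FPKM ran from 2.50 to 2.97 with overexpression, 6.07 to 6.50 in its control, 1.86 to 4.55 in the knockdown and 0.93 to 1.52 in its control. Their part in the results below was not tested. In bulk RNA, fewer cells expressing a gene and less of its RNA per cell cannot be told apart.

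Several results below turn on exons that part of a member's transcripts skip, and these are shown first, read from the GENCODE 29 transcripts (GRCh38). The skipped exon is in capitals, and 15 bases of each neighbouring exon are in lower case. The exons lie at chr14:65101546-65101572 on the minus strand (MAX), chr17:42568470-42568559 on the plus strand (MLX), chr2:69921736-69921765 on the plus strand (MXD1) and chr10:110244828-110244857 on the plus strand (MXI1).
MAX-216: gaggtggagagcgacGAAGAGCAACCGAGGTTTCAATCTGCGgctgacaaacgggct
MLX-203: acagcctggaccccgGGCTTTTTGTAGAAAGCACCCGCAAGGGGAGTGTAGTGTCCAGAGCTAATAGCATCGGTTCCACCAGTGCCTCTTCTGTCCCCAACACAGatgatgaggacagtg
MXD1-201: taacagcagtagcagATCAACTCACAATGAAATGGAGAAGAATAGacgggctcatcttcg
MXI1-201: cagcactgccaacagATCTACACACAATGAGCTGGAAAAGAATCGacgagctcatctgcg
The exons of MXD1 and MXI1 have the same length, 30 bases, and 24 of the 30 bases (80%) are identical. Both encode the start of the basic region, the stretch of these proteins that contacts DNA. The 27-base exon of MAX is known as the short insertion, ahead of the basic region, by which the main forms of the protein differ.

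The E-box CACGTG, the sequence that all dimers of the network are known to bind, was searched for on both strands (it is its own reverse complement) in RefSeq promoters of 300 bases (GRCh38.p14), which reach from 250 bases before to 50 after a start site. The table held 14 promoters of 9 of the members, and 3 of the 14 (21.4%) contained it, against 2548 of all 35116 promoters (7.26%). The matches, in capitals, belong to MXD4 at chr4:2262325-2262359 on the minus strand, MNT at chr17:2401231-2401270 on the minus strand and MLX at chr17:42567033-42567072 on the plus strand.
MXD4: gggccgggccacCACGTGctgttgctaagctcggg
MNT: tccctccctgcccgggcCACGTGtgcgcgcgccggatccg
MLX: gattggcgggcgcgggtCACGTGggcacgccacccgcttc
The motif began 238 bases before the start site in MXD4, 193 in MNT and 50 in MLX. These matches describe the letters in the windows and are no measure of binding.

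MYC (ENSG00000136997, chr8:127735434-127741434, plus strand; GENCODE 29) moved in opposite directions in the 2 arms of the study, up with NR0B1 overexpression and down with the knockdown. With overexpression it was measured at 314, 293 and 301 CPM in replicates 1, 2 and 3, and in the overexpression controls at 89.2, 63.8 and 78.3 CPM. Every overexpression library was above every control, and the change was 1.97 on the log2 scale (SE 0.25), 3.93-fold, with an edgeR quasi-likelihood adjusted p of 0.00118. In the knockdown MYC was measured at 162, 92.8 and 213 CPM, and in the knockdown controls at 443, 374 and 415.5 CPM. Again the groups did not overlap, although the knockdown libraries spread more widely than those of the other 3 groups. The fall was 2.64-fold, a change of -1.40 (SE 0.24, adjusted p = 0.00251). The overexpression change exceeded the knockdown change by 3.37 (SE 0.34, adjusted p = 0.000199). No single library ended either call, and without both libraries that stood apart the changes were 2.09 and -1.13. Among all 11908 genes tested, MYC had the 77th highest change with overexpression and the 168th lowest in the knockdown.

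The estimated difference in MYC between the 2 control groups was larger than that of either arm from its control, though these differences were not tested against each other. MYC stood at 77.1 ± 12.8 CPM (SD, n = 3) in the overexpression controls and 411 ± 34.6 in the knockdown controls, a 5.33-fold difference (log2 -2.41, SE 0.25, adjusted p = 0.000249), which was the 40th lowest of all genes. The overexpression cells, at 303 ± 10.4 CPM, held less MYC RNA than the knockdown controls. The knockdown cells, at 156 ± 60.2 CPM, held more than the overexpression controls, with their lowest library at 92.8 CPM against 89.2 in the highest control. Neither of these comparisons across the arms was tested. Both control groups carry the genotype label WT, and a difference in vector between them cannot be told apart from one in culture or handling. NR0B1 was 2.63-fold higher in the overexpression controls than in the knockdown controls (adjusted p = 0.0189), although the libraries overlapped and the call was lost without overexpression control replicate 2 or 3 or knockdown control replicate 1 or 3 (adjusted p up to 0.0782). Between the controls, MYC was thus lower in the group with more NR0B1 RNA, the reverse of their directions in the arms. Each arm is therefore read against its own control.

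**Figure D1:**
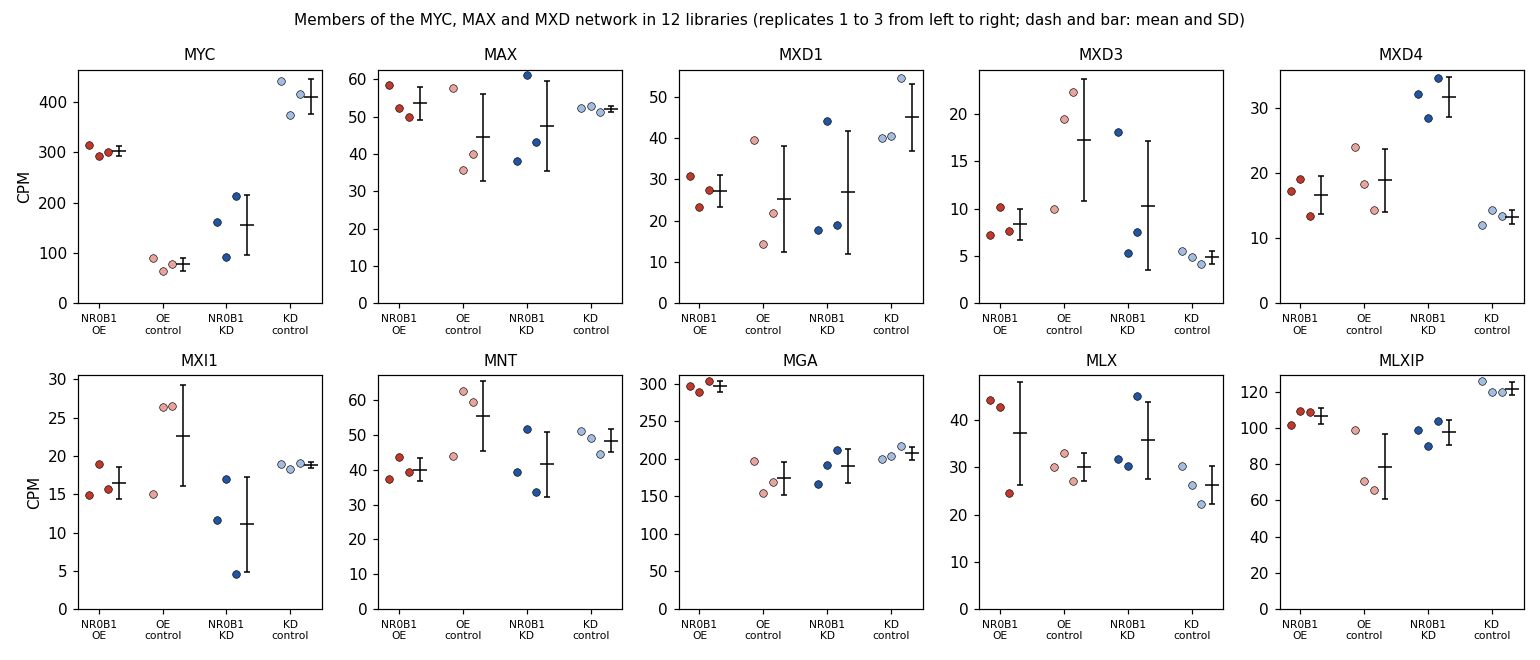
CPM (vertical axes, each from 0) of the 10 network genes in the 12 libraries by group, with points for replicates 1 to 3 from left to right and a dash and bar for the group's mean and SD. MYC is highest in the 3 knockdown controls, at 374 to 443, and lowest in the 3 overexpression controls, at 63.8 to 89.2; MAX overlaps between all 4 groups.

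Most MYC RNA was assigned to 1 transcript in every group. MYC-206, which has 454 codons, held between 61.3% and 70.7% of the gene's FPKM in all 12 libraries, and MYC-202, with 439 codons, between 11.1% and 28.5%. MYCN and MYCL, the other genes of the MYC family, were at most 5 and 34.99 estimated counts per library and did not pass the filter.

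MAX (ENSG00000125952, chr14:65006174-65102695, minus strand), the obligate partner, did not pass in either arm while MYC changed. It was measured at 58.4, 52.4 and 49.9 CPM with overexpression and at 57.7, 35.7 and 40.0 CPM in its control. In the knockdown it was at 38.2, 61.2 and 43.1 CPM, and in the knockdown controls at 52.2, 52.8 and 51.2 CPM. The libraries of both arms overlapped with their controls, with changes of 0.27 (edgeR adjusted p = 0.364) and -0.13 (adjusted p = 0.658). Both changes depend on the libraries that stood apart, since the highest MAX value of the overexpression controls and the highest of the knockdown libraries are those 2. Without both, the changes were 0.50 (adjusted p = 0.00575) and -0.36 (adjusted p = 0.0245).

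The 5 antagonists of the MXD group and MNT did not move as 1 block. MXD4 (ENSG00000123933, chr4:2247432-2262294, minus strand), an MXD protein known from differentiating cells, rose in the knockdown. It was at 32.1, 28.5 and 34.6 CPM there and at 12.03, 14.3 and 13.4 CPM in the knockdown controls, with no overlap. The rise was 2.39-fold, a change of 1.26 (SE 0.20, edgeR adjusted p = 0.00169), and it passed without any single library, with changes from 1.18 to 1.33. With overexpression MXD4 was at 17.3, 19.2 and 13.4 CPM against 24.0, 18.4 and 14.3 CPM, and the change of -0.18 did not pass (adjusted p = 0.542). The response of the overexpression arm minus that of the knockdown arm was -1.44 (SE 0.28, adjusted p = 0.00427).

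MXD3 (ENSG00000213347, chr5:177301461-177312757, minus strand), an MXD protein linked to dividing cells, had changes opposite to those of MYC, but neither arm passed. Its libraries were at 7.17, 10.2 and 7.67 CPM with overexpression, 9.98, 19.4 and 22.2 in its control, 18.1, 5.34 and 7.50 in the knockdown and 5.52, 4.92 and 4.10 in the knockdown control. Overexpression control replicate 1 was the low one of its group, and knockdown replicate 1 was the high one of its own. The changes were -1.05 (SE 0.42, edgeR adjusted p = 0.105) and 1.09 (SE 0.43, adjusted p = 0.0863). Without overexpression control replicate 1 the first was -1.32 (adjusted p = 0.0436), and without knockdown replicate 2 the second was 1.40 (adjusted p = 0.0249). Without knockdown replicate 1 the second was 0.41 (adjusted p = 0.434). The difference of the arms was -2.14 (SE 0.60, adjusted p = 0.0243), a call that was lost without any 1 of 6 libraries (overexpression replicates 1 and 3, overexpression control replicates 2 and 3, knockdown control replicates 2 and 3), with adjusted p up to 0.0649. MXD3 was also 1.83 higher on the log2 scale (SE 0.43, adjusted p = 0.00897) in the overexpression controls than in the knockdown controls.

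MXD1 (ENSG00000059728, chr2:69897688-69942945, plus strand), the first described MAX dimerisation protein, was at 30.9, 23.3 and 27.3 CPM with overexpression and at 39.4, 14.2 and 21.9 CPM in its control. The knockdown libraries were at 17.8, 44.1 and 18.8 CPM and their controls at 40.0, 40.5 and 54.4 CPM. Overexpression control replicate 1 and knockdown replicate 2, which stand apart in the whole transcriptome, were each the highest of their group in MXD1. The knockdown change was -0.74 (SE 0.39) and did not pass (edgeR adjusted p = 0.188), but without knockdown replicate 2 it was -1.30 (adjusted p = 0.0192).

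MXI1 (ENSG00000119950, chr10:110207605-110287365, plus strand) was lower in all 3 knockdown libraries, at 11.6, 16.9 and 4.61 CPM, than in the knockdown controls, at 19.0, 18.3 and 19.1 CPM. The spread of the knockdown libraries was wide, and the change of -0.77 (SE 0.37) did not pass (edgeR adjusted p = 0.153). It was -1.21 without knockdown replicate 2 (adjusted p = 0.0293) and -0.40 without knockdown replicate 3 (adjusted p = 0.28). With overexpression MXI1 was at 14.9, 18.9 and 15.7 CPM against 15.01, 26.4 and 26.6 CPM, with a change of -0.46 (adjusted p = 0.405).

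MNT (ENSG00000070444, chr17:2384060-2401118, minus strand), the broadly expressed antagonist of MYC, was at 37.2, 43.6 and 39.3 CPM with overexpression, below all its controls at 43.8, 62.6 and 59.5 CPM. The change of -0.47 did not pass (edgeR adjusted p = 0.0831), and was -0.61 without overexpression control replicate 1 (adjusted p = 0.0249). The knockdown libraries, at 39.4, 51.7 and 33.5 CPM, overlapped with their controls at 51.1, 49.2 and 44.6 CPM, and the change of -0.22 (adjusted p = 0.385) was -0.41 without both libraries that stood apart (adjusted p = 0.0202).

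MGA (ENSG00000174197, chr15:41621224-41773081, plus strand), a very large protein with both a T-box and a helix-loop-helix domain, rose with overexpression. It was at 296, 289 and 303 CPM there and at 197, 155 and 170 CPM in the controls, with a tight overexpression group far above every control. The rise was 1.70-fold, a change of 0.77 (SE 0.12, edgeR adjusted p = 0.00272), and it passed without any single library, with adjusted p up to 0.0172. In the knockdown MGA was at 166, 192 and 212 CPM against 199.5, 204 and 217 CPM, a change of -0.12 (adjusted p = 0.472). The difference of the arms was 0.89 (SE 0.16, adjusted p = 0.00334).

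MLXIP (ENSG00000175727, chr12:122078722-122147347, plus strand), the nutrient-sensing activator that pairs with MLX, was at 102, 110 and 109 CPM with overexpression and at 99.2, 70.7 and 65.9 CPM in the controls. The groups did not overlap, but control replicate 1, which stood apart, was just below the lowest overexpression library. The change was 0.44 (SE 0.14), 1.36-fold, and only just passed (edgeR adjusted p = 0.0489). That call was lost without any 1 of 9 libraries (all except overexpression control replicate 1 and knockdown replicates 2 and 3), with adjusted p up to 0.165, and was 0.64 with adjusted p = 0.000488 without both libraries that stood apart. In the knockdown all libraries, at 98.9, 90.2 and 104 CPM, were below their controls at 126, 120 and 120 CPM, with a change of -0.32 that did not pass (adjusted p = 0.119) but did without overexpression control replicate 1, at the same size (adjusted p = 0.0186). The difference of the arms was 0.76 (SE 0.20, adjusted p = 0.0167). MLXIP also differed between the controls, by -0.63 (SE 0.14, adjusted p = 0.00638), lower in those of overexpression.

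MLX (ENSG00000108788, chr17:42567068-42573239, plus strand) was at 44.4, 42.7 and 24.6 CPM with overexpression against 30.01, 33.1 and 27.1 CPM, and overexpression replicate 3 was the lowest of all 6 libraries. In the knockdown it was at 31.8, 30.4 and 45.2 CPM, just above its controls at 30.3, 26.2 and 22.3 CPM. Neither the change of 0.31 (edgeR adjusted p = 0.372) nor that of 0.45 (adjusted p = 0.181) passed.

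Counted together, 3 members rose with overexpression (MYC, MGA and MLXIP) and none fell, where 18.1% of all tested genes passed, 9.87% higher and 8.20% lower. In the knockdown 1 rose (MXD4) and 1 fell (MYC), where 23.9% of all genes passed, 12.4% higher and 11.5% lower. The median change of the 10 members was 0.19 with overexpression and -0.18 in the knockdown, beside -0.03 and 0.03 over all genes. The arms differed from each other in 5 members, MYC, MGA and MLXIP in one direction and MXD3 and MXD4 in the other, where 25.6% of all genes passed. This comparison uses the same libraries as the 2 arms. The 2 control groups differed in 3 members, 1 higher (MXD3) and 2 lower (MYC and MLXIP) in those of overexpression, where 33.4% of all genes passed, 17.2% higher and 16.1% lower. Ranges of the libraries did not overlap for 4 of the 10 members with overexpression, where this held for 43.5% of all genes, for 5 of the 10 in the knockdown, where it held for 40.9%, and for 6 of the 10 between the controls, where it held for 54.0%. The shares without overlap are thus near the background in all 3 comparisons. MYC was the 1 member called in both arms, as were 5.79% of all genes. It belonged to the 490 genes (4.11%) called in opposite directions and to the 270 (2.27%) that rose with overexpression and fell in the knockdown.

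**Figure D2:**
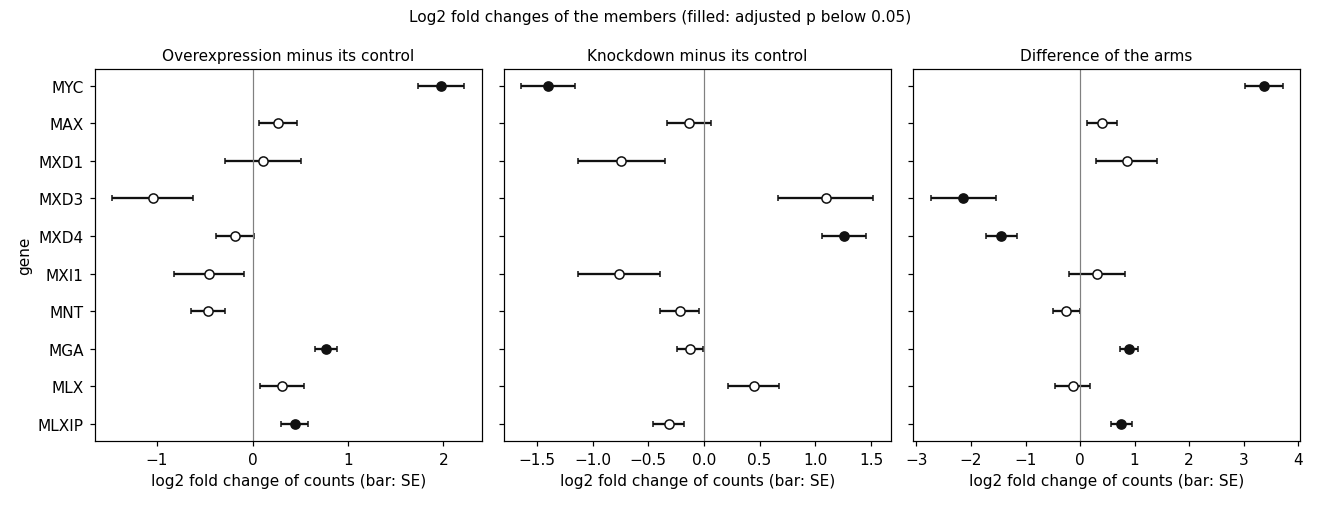
Log2 fold changes of the 10 members with standard errors from the edgeR quasi-likelihood fit (horizontal axes), for each arm against its own control and for the difference of the arms; filled points passed. MYC stands at 1.97 and -1.40, MGA at 0.77 with overexpression and MXD4 at 1.26 in the knockdown.

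On the FPKM scale, where genes can be compared, MYC had the highest mean level of the network in all 4 groups, MAX the second and MGA the third. MYC alone made up 56.0% of the network's summed FPKM with overexpression, 26.9% in its control, 42.6% in the knockdown and 65.3% in the knockdown control. In the overexpression controls MYC, at 42.8, 31.6 and 36.3 FPKM, and MAX, at 36.0, 19.8 and 22.0 FPKM, overlapped, and MAX overlapped with MGA. In the other 3 groups the first 3 genes were separated from each other and from the rest in every library. The mean FPKM of MAX was 35.2, 25.9, 29.9 and 37.0 in overexpression, its control, knockdown and its control, and that of MGA 28.4, 18.3, 19.8 and 20.9. The remaining 7 members had group means between 2.74 FPKM (MXD4 in the knockdown controls) and 13.9 FPKM (MLXIP in the same cells), and most neighbours in that order overlapped. The place of MXD3 moved most between the controls: it was the fourth highest in the overexpression controls, at 11.9 ± 4.56 FPKM, and the ninth in the knockdown controls, at 3.36 ± 0.487.

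The amount of MYC RNA relative to its partner followed MYC, since MAX varied less. The ratio of MYC to MAX FPKM was 4.01, 4.20 and 4.28 with overexpression and 1.19, 1.6 and 1.65 in the controls. In the knockdown it was 3.08, 1.25 and 3.74, and in the knockdown controls 5.85, 5.02 and 5.78. The groups of each arm did not overlap, which gives an exact two-sided permutation p of 0.1, the smallest that 3 against 3 libraries allow. The summed FPKM of MXD1, MXD3, MXD4, MXI1 and MNT was 26.2 ± 2.93 with overexpression and 36.7 ± 6.67 in its control (SD, n = 3), with ranges of 23.9 to 29.5 and 29 to 41.1 that overlap. In the knockdown it was 28.7 ± 5.69 and in the knockdown controls 28.4 ± 0.451. The ratio of MYC FPKM to this sum was 5.63 ± 0.719 with overexpression, 2.84 ± 1.64 in the knockdown and 7.23 ± 0.487 in its control. In the overexpression controls it was 1.47, 0.792 and 0.883, so MYC was below the sum in 2 of the 3 libraries and above it in the one that stood apart.

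**Figure D3:**
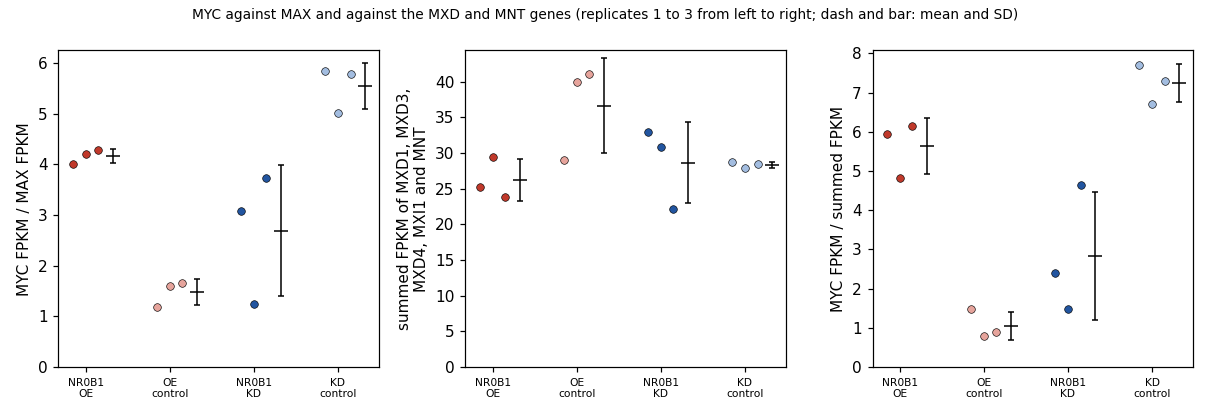
Ratio of MYC FPKM to MAX FPKM (left), the summed FPKM of MXD1, MXD3, MXD4, MXI1 and MNT (middle) and the ratio of MYC FPKM to that sum (right), with points for libraries and a dash and bar for the group's mean and SD. The overexpression controls have the lowest mean ratios, with MYC over MAX at 1.19 to 1.65, and the knockdown controls the highest, at 5.02 to 5.85.

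The share of FPKM in transcripts that include the exon was taken for 6 such exons, out of the transcripts that include or skip it. The 30-base exon of MXI1 was included in 69.3%, 68.7% and 68.6% of MXI1 FPKM with overexpression and in 93.7%, 89.1% and 87.8% in its control and the overexpression libraries were below every control with little spread. In the knockdown the shares were 83.6%, 79.6% and 94.2% against 82.9%, 82.0% and 84.5%, which overlap. The exact two-sided permutation p was 0.1 with overexpression, the smallest possible, and 0.8 in the knockdown, and these 6 exons were not adjusted for their number. The main transcript without the exon, MXI1-205, held 25.4% of MXI1 FPKM with overexpression and 6.6% in its control. Its share was 29.8%, 30.3% and 14.8% in overexpression replicates 1, 2 and 3. MXI1-207, which also lacks the exon, held 0.9%, 1.0% and 16.5% there, so the skipping share was divided differently in replicate 3. MXI1 had between 75 and 484 estimated counts per library.

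The 90-base exon of MLX had a lower share in every library of either arm than in any of its controls. The share was 44.2%, 39.2% and 57.1% with overexpression against 60.5%, 99.7% and 74.9%, and 33.6%, 50% and 71.4% in the knockdown against 100%, 72.6% and 100%. MLX-202, which lacks the exon, had a mean of 6.75 FPKM with overexpression, 1.89 in its control, 5.41 in the knockdown and 0.84 in its control. The ranges of the shares did not overlap in either arm (exact permutation p = 0.1 in both), and MLX had 314 to 735 counts per library.

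The 27-base exon of MAX was included in 42.7%, 55.0% and 44.5% with overexpression and in 34.0%, 39.0% and 30.2% in its control (exact permutation p = 0.1). In the knockdown the shares were 26.7%, 29.3% and 40.1% against 40.1%, 33.8% and 33.5% (exact permutation p = 0.5). Among the transcripts with this exon the difference lay mostly in MAX-216, at 29.1% of MAX FPKM with overexpression and 8.8% in its control, which has only 103 codons against 151 in MAX-204 without the exon. The share is therefore no measure of the longer protein. A further MAX exon, of 81 bases, was included in 0.0283%, 0% and 25.8% with overexpression and in 8.7%, 0% and 57.2% in its control (exact permutation p = 0.7), so the division of MAX reads among transcripts varied widely between replicates. A 627-base exon of MGA at chr15:41742546-41743172 was included in 71.8%, 70.4% and 72.2% with overexpression against 87.9%, 74.9% and 84.7% (exact permutation p = 0.1), and in 89.8%, 96.3% and 85.1% in the knockdown against 91.4%, 87.1% and 87.5% (exact permutation p = 0.7). For the 30-base exon of MXD1 the means were 95.9%, 86.4%, 94.7% and 98.6% in overexpression, its control, knockdown and its control, and the ranges overlapped in both arms. The shares come from the authors' assignment of reads to transcripts, which divides reads that fit several of them.

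**Figure D4:**
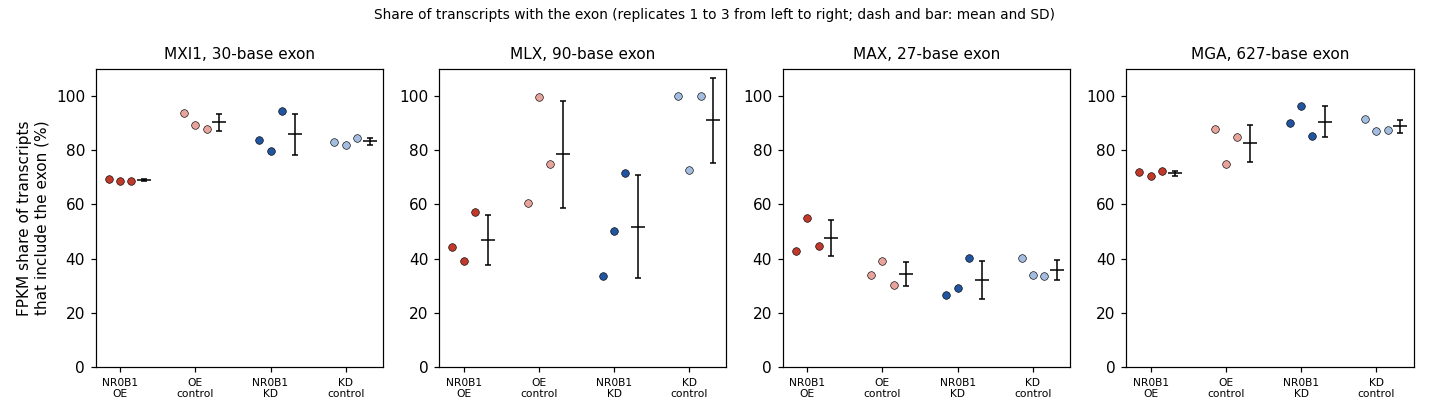
Percent of FPKM in transcripts that include the exon, out of those that include or skip it, for 1 exon each of MXI1, MLX, MAX and MGA. Points are libraries, and a dash and bar give the group's mean and SD. The MXI1 exon lies near 69% in the 3 overexpression libraries and between 79.6% and 94.2% in the other 9.

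The cofactors that MYC is known to recruit, 14 genes of histone acetylation, chromatin remodelling and transcript elongation, were called higher in 3 cases and lower in none with overexpression, with a median change of 0.27, where 9.87% of all genes were higher and 8.20% lower with a median of -0.03. BPTF, a remodelling subunit known as a MYC cofactor, rose by 0.63 (edgeR adjusted p = 0.0126), and the acetyltransferase KAT2A by 0.52 (adjusted p = 0.0244). WDR5, which anchors MYC to chromatin, rose by 0.62 (adjusted p = 0.037). In the knockdown 1 rose and 4 fell, with a median of -0.27, where 12.4% of all genes were higher and 11.5% lower with a median of 0.03. Without both libraries that stood apart, 5 rose and none fell with overexpression, and 4 rose and 5 fell in the knockdown. In that setting more of all genes passed too, 4462 in place of 2152 with overexpression and 4493 in place of 2851 in the knockdown. With all libraries the cyclin CCNT1, a subunit of the elongation kinase P-TEFb, fell by 0.65 in the knockdown (adjusted p = 0.00209). The remodeller subunit ACTL6A fell by 0.64 (adjusted p = 0.00884). ZBTB17 (MIZ1), through which MYC is known to repress genes, fell by 1.28 (adjusted p = 0.0232), and PAF1 fell by 0.34 (adjusted p = 0.0288). KAT2A rose in the knockdown as well, by 0.57 (adjusted p = 0.0127). Between the controls 7 of the 14, ACTL6A among them, were lower in those of overexpression and none was higher. Of all genes 16.1% were lower there and 17.2% higher. The overexpression calls were lost for BPTF without overexpression replicate 2 (adjusted p = 0.0535), for KAT2A without overexpression replicate 1 or 3 or control replicate 2 or 3 (up to 0.0947), and for WDR5 without any 1 of the 9 libraries outside the knockdown group (up to 0.13). Those of the knockdown were lost for ZBTB17 without knockdown replicate 1 or control replicate 1 or 3 (up to 0.0936) and for PAF1 without control replicate 1 or 3 (up to 0.111).

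Among 13 genes of MYC protein turnover, 2 rose and 2 fell with overexpression, and 1 rose and 1 fell in the knockdown. Among all genes 18.1% and 23.9% passed. Without both libraries that stood apart the counts were 4 and 3, and 3 and 1. With both left out, 4462 and 4493 of all genes passed, in place of 2152 and 2851. USP36, a nucleolar deubiquitinase known to stabilise MYC, moved with MYC. It was at 154, 154.5 and 156 CPM with overexpression against 67.4, 56.9 and 58.3 CPM, and at 50.7, 57.5 and 77.4 CPM in the knockdown against 117, 130 and 123 CPM. The libraries did not overlap in either arm, and the changes were 1.35 (edgeR adjusted p = 0.000596) and -0.99 (adjusted p = 0.00099). FBXW7, the substrate receptor that targets MYC for degradation, rose by 0.50 with overexpression (adjusted p = 0.0367), and SKP2, another ubiquitin ligase subunit acting on MYC, rose by 1.15 in the knockdown (adjusted p = 0.0415). STUB1, a ubiquitin ligase that acts on MYC, fell by 0.36 with overexpression (adjusted p = 0.0314). The calls of FBXW7, STUB1 and SKP2 were lost on leaving out single libraries, 6 for FBXW7 (adjusted p up to 0.121 without overexpression replicate 2), 7 for STUB1 (0.132 without overexpression replicate 3) and 10 for SKP2 (0.154 without knockdown control replicate 3). Of 13 regulators of MYC transcription and mRNA, 1 rose and 1 fell with overexpression and none rose and 1 fell in the knockdown. Among all genes 18.1% passed with overexpression and 23.9% in the knockdown. CTCF rose by 0.58 with overexpression (adjusted p = 0.0101), and IGF2BP2, which binds and stabilises MYC mRNA, fell by 0.87 in the knockdown (adjusted p = 0.0127). ZFP36, which promotes decay of AU-rich mRNAs, fell by 1.17 with overexpression (adjusted p = 0.0427), a call lost without any 1 of 9 libraries (all except overexpression control replicate 1 and knockdown replicates 2 and 3), with adjusted p up to 0.141.

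The SIN3 complex, through which MXD proteins and MNT repress, had 1 of its 14 genes higher and 1 lower with overexpression. In the knockdown none was higher and 2 were lower. Among all genes 18.1% passed with overexpression and 23.9% in the knockdown. Without both libraries that stood apart the counts were 3 and 2, and 3 and 3. The calls among all genes then rose as well, from 2152 to 4462 and from 2851 to 4493. SIN3A, the scaffold, fell by 0.70 with overexpression, from 272 ± 10.9 to 168 ± 2.26 CPM (edgeR adjusted p = 0.00834), while its paralog SIN3B rose by 0.41 (adjusted p = 0.0427), a call that 7 single libraries ended (adjusted p up to 0.148 without overexpression control replicate 3). In the knockdown the change of SIN3A was -0.12 (adjusted p = 0.541). The subunits ARID4A and ARID4B fell by 0.85 and 0.49 there (adjusted p = 0.0277 and 0.0202), calls lost without knockdown replicate 1 or 3 or control replicate 3 for both, and without control replicate 1 for ARID4A (adjusted p up to 0.0807 and 0.0755).

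MGA is known to assemble with a variant Polycomb complex, PRC1.6, and 2 of the 11 other genes of that complex rose with overexpression and none fell, a share of called genes near the 18.1% among all genes. E2F6, the DNA-binding repressor of the complex, rose by 1.54 (edgeR adjusted p = 0.00104), and RYBP, a RING-binding subunit, rose by 0.94 (adjusted p = 0.00197), from 61.9 ± 7.05 to 118 ± 6.63 CPM. Without both libraries that stood apart the counts were 4 and 0 with overexpression and 5 and 2 in the knockdown. In that setting 4462 and 4493 of all genes passed, in place of 2152 and 2851. With all libraries, 3 rose and 2 fell in the knockdown, where 23.9% of all genes passed. RYBP fell by 0.79 (adjusted p = 0.00187), from 96.8 ± 8.10 to 55.8 ± 8.22 CPM, and its paralog YAF2 fell by 0.78 (adjusted p = 0.00325). The histone methyltransferase EHMT2 rose by 0.88 (adjusted p = 0.00099), PCGF6, the subunit that defines this complex, by 0.70 (adjusted p = 0.0114), and TFDP1, the partner of E2F6, by 0.70 (adjusted p = 0.0434). The calls of the last 2 were lost without knockdown control replicate 3 (adjusted p = 0.0543 and 0.152), and that of TFDP1 without any 1 of 6 others.

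ARRDC4 and TXNIP, the best-known targets of MLX and MLXIP, ranged from 0.716 to 35.0 CPM. Only their lowest libraries were near the lower end of what the libraries measure. ARRDC4 was at 1.75, 1.47 and 0.923 CPM in the knockdown and 9.15, 7.89 and 14.6 CPM in its control, a change of -2.92 that passed (edgeR adjusted p = 0.0405) but was lost without any 1 of the 9 libraries outside the overexpression controls (adjusted p up to 0.111). TXNIP, named after its values were seen, was at 1.80, 1.90 and 0.923 CPM against 10.2, 9.49 and 17.1 CPM, a change of -2.98 that did not pass (adjusted p = 0.0588) but did without any 1 of the 3 overexpression controls (adjusted p down to 0.0013 without replicate 1). In the overexpression controls replicate 1 stood at 35.0 CPM of TXNIP and 16.5 CPM of ARRDC4, while the other 2 libraries were at 2.29 and 1.11, and at 1.53 and 0.716. The overexpression change of ARRDC4 was -0.40 (adjusted p = 0.778) with that library and 2.06 (adjusted p = 0.0113) without it. MLXIPL, the paralog of MLXIP, did not pass in either arm and had group means between 3.31 and 5.02 CPM.

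Genes that MYC is known to activate, mostly of ribosome production, were called higher more often than lower with overexpression and lower more often than higher in the knockdown. Of 45 listed genes 43 were measured. With overexpression 14 rose and 1 fell, with a median change of 0.42 beside -0.03 over all genes, of which 9.87% rose and 8.20% fell. In the knockdown 2 rose and 12 fell, with a median of -0.15 beside 0.03 over all genes, of which 12.4% rose and 11.5% fell. The 14 were BYSL, DDX18, GNL3, MYBBP1A, NIP7, NOLC1, NOP16, NOP2, NOP56, ODC1, PPAN, PUS1, RRP12 and WDR43. The 12 were BYSL, GNL3, NOLC1, NOP16, NOP56, ODC1, PA2G4, POLR1B, PPAN, RRP12, SHMT2 and TFB2M. The lists share 8 genes, 57.1% of the 14 and 66.7% of the 12. Among all genes 1175 rose with overexpression, 1372 fell in the knockdown and 270 did both. PRDX3, a mitochondrial peroxidase, went the other way, with changes of -0.53 (edgeR adjusted p = 0.0161) and 0.75 (adjusted p = 0.00208), the first lost without overexpression replicate 2 or 3 or control replicate 3 (up to 0.0704).

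PUS1, a pseudouridine synthase, was at 40.5 ± 0.665 CPM with overexpression and 17.7 ± 3.82 in its control (SD, n = 3), a change of 1.19 (edgeR adjusted p = 0.00331). PPAN, a factor of the large ribosomal subunit, changed by 1.20 (adjusted p = 0.00597) and -0.73 (adjusted p = 0.0299). ODC1, the rate-limiting enzyme of polyamine synthesis and a textbook MYC target, changed by 0.94 (adjusted p = 0.0169) and -0.86 (adjusted p = 0.0175). In the knockdown the call of PPAN was lost without any 1 of 5 libraries of that arm (all except knockdown replicate 3; adjusted p up to 0.101) and that of ODC1 without knockdown replicate 1 or control replicate 3 (up to 0.0641). With overexpression that of ODC1 was lost without overexpression replicate 1 or 3 or control replicate 2 or 3 (up to 0.069). NOP56, a core protein of box C/D ribonucleoproteins, had the largest changes of this list but is uncertain. It was at 2.77, 1.92 and 1.25 CPM with overexpression, at 0 to 0.195 in its control, at 0 to 0.979 in the knockdown, and at 13.5, 25.1 and 48.0 CPM in the knockdown controls. When transcripts that the authors assembled outside Ensembl were added, its knockdown change was -0.16 (adjusted p = 0.727) and its overexpression change 1.13 (adjusted p = 0.0266). Without that addition the overexpression call was lost without overexpression replicate 1 or control replicate 2 or 3 (adjusted p up to 0.069).

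The counts of MYC-activated genes depend on single libraries. Those that rose with overexpression were between 4 (without overexpression control replicate 2 or 3) and 20 (without knockdown replicate 2), and those that fell in the knockdown were between 1 (without knockdown control replicate 3) and 18 (without knockdown replicate 3). Without both libraries that stood apart, 26 rose and 1 fell with overexpression, but in the knockdown 9 rose and 11 fell with a median of 0.00. Of all genes, 2372 then rose and 2090 fell with overexpression, and 2267 rose and 2226 fell in the knockdown. Between the controls 26 of the 43 were lower in the overexpression controls and 1 higher, with a median of -0.66. Of all genes 16.1% were lower there and 17.2% higher, with a median of 0.01, and MYC was also lower.

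**Figure D5:**
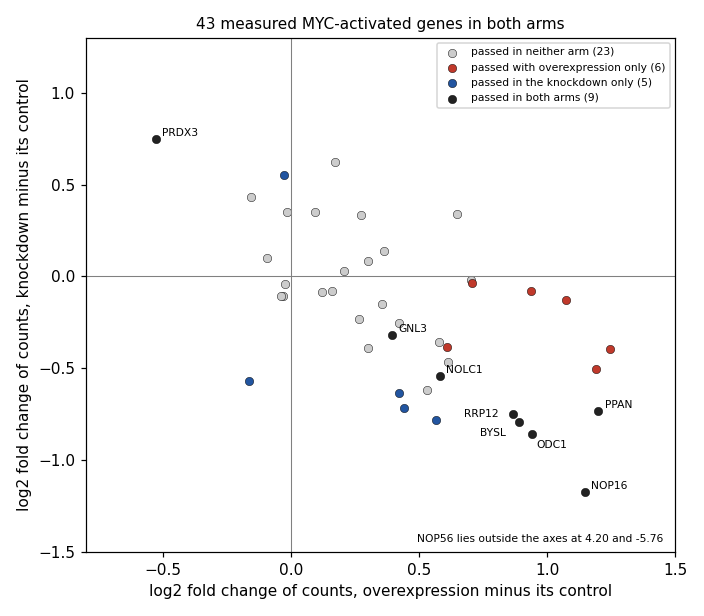
Log2 fold changes of 43 MYC-activated genes with overexpression (horizontal) and in the knockdown (vertical), coloured by the arms in which they passed; NOP56, at 4.20 and -5.76, lies outside the axes. Of the 9 genes that passed in both arms, 8 are higher with overexpression and lower in the knockdown, and PRDX3 is the reverse.

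Of 10 listed genes that MYC is known to repress, 8 were measured. With overexpression 1 rose and 2 fell, with a median change of -0.28 beside -0.03 over all genes. In the knockdown none rose and 2 fell, with a median of -0.38 beside 0.03 over all genes. Among all genes 18.1% and 23.9% passed. Without both libraries that stood apart the counts were 1 and 3, and 0 and 5. Of all genes, 4462 and 4493 then passed, in place of 2152 and 2851. CDKN1B (p27), a cyclin-dependent kinase inhibitor, fell by 1.54 with overexpression (edgeR adjusted p = 0.00206), from 108 ± 18.8 to 37.0 ± 5.84 CPM, and CDKN1A (p21) fell by 1.04 (adjusted p = 0.0199). KLF6, a zinc finger factor, rose by 0.98 (adjusted p = 0.0176). The calls of CDKN1A and KLF6 were both lost without overexpression replicate 1 or 3 or control replicate 3, and that of KLF6 also without control replicate 2 (adjusted p up to 0.0769 and 0.0703). In the knockdown GADD45A, a growth-arrest gene repressed by MYC, fell by 2.17 (adjusted p = 7.8e-05), from 140 ± 18.0 to 30.9 ± 8.54 CPM, together with TSC22D3, which fell by 1.45 (adjusted p = 0.00703). The changes of CDKN1B and CDKN1A in the knockdown were -0.42 (adjusted p = 0.165) and 0.53 (adjusted p = 0.151). Without knockdown replicate 2 that of CDKN1B was -0.69 (adjusted p = 0.0164), and without knockdown replicate 3 that of CDKN1A was 0.78 (adjusted p = 0.0238).

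Across the 12 libraries the 5 genes whose log2 CPM followed that of MYC most closely were PRPF38A (Pearson r 0.981, Spearman rho 0.958), SREK1 (0.976, 0.951), DNAJC2 (0.976, 0.944), CPSF7 (0.975, 0.895) and UTP15 (0.974, 0.972). These values describe 12 libraries that fall into 4 groups and share depth and library effects, and no p is given. Among the members MLXIP was closest to MYC, with r 0.884, and ranked 211th of all genes, followed by MGA at 0.63 and MXD1 at 0.433. MAX stood at 0.389 and MLX at -0.031. The antagonists of the MXD group and MNT did not share a sign. MXI1, MXD4, MNT and MXD3 had negative values, from -0.191 for MXI1 to -0.69 for MXD3, while that of MXD1 was positive. Spearman rho was -0.063 for MXI1, -0.594 for MXD4, -0.329 for MNT, -0.748 for MXD3 and 0.587 for MXD1.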

How the data were processed

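The 12 A549 libraries were prepared from 3 µg of RNA each. The authors deposited 1 table of transcripts with 2 values per library, an estimated count and an FPKM, as its column headers name them. The estimated counts deposited by the authors are treated as RSEM expected counts, and the FPKM values deposited by the authors are relative to transcript length and depth. The submitters' processing notes name HISAT2 2.0.5, fastp, Bowtie2 2.2.8, StringTie 1.3.1 and RSEM, and the mouse builds GRCm38 and mm10, although 82237 of the 82270 Ensembl transcript IDs are human ones of GENCODE 29 (99.78% with the same symbol). Annotation release, filters and strandedness were not given in the sources used here, so reads of overlapping or antisense genes cannot be told apart.

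Both values were summed over Ensembl transcripts per symbol, after 184 symbols that had been turned into dates were restored. The 13977 assembled transcripts, with 13.3% to 15.4% of counts, were added only as an alternative. Rounded counts of 11908 genes with FPKM of at least 1 in 3 libraries were fitted in edgeR 4.0.16 (R 4.3.3; TMM, robust quasi-likelihood, 1 mean per group, 8 residual degrees of freedom), tested on simulated data first. Genes are called at a Benjamini-Hochberg adjusted p under 0.05 over all genes in each of 4 comparisons, and all adjusted p-values come from this edgeR fit unless another tool is named. The biological coefficient of variation was 24.5%. CPM use TMM-scaled library sizes. A count of 3 corresponds to 0.132 to 0.199 CPM of a library's unscaled total, and members had 75 to 7911 counts per library. SE is the log2 fold change divided by the root of F. No 2 libraries agreed within sampling noise. Alternatives were DESeq2 1.42.0, limma 3.58.1 on log2(FPKM + 1) and log2(FPKM + 0.1), RLE scaling, no filter, filterByExpr, each arm alone, a replicate block and leaving out libraries. The members and gene lists were chosen with earlier results of these data known. From each list up to 3 genes that passed in either arm were taken by smallest adjusted p, and the 5 genes most correlated with MYC; further genes of the lists were named after their values were seen. Some genes of the lists are counted but not reported by name here.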

Additional observations from a re-analysis of the deposited data

Results flagged for a closer look

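For 5 members the response to overexpression differed from the response to the knockdown by the interaction test of the edgeR fit, each response taken against its own control. The differences of the log2 fold changes were 3.37 for MYC (adjusted p = 0.000199), 0.89 for MGA (adjusted p = 0.00334) and 0.76 for MLXIP (adjusted p = 0.0167). They were -1.44 for MXD4 (adjusted p = 0.00427) and -2.14 for MXD3 (adjusted p = 0.0243). The same test called 25.6% of all genes.

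A transcript that the authors assembled outside Ensembl carries the symbol MXD4 and was not part of the values above. Its mean was 5.49 ± 1.79 CPM in the knockdown and 1.93 ± 1.34 CPM in the knockdown controls (SD, n = 3), with libraries at 3.83, 7.39 and 5.25 against 2.76, 2.64 and 0.387. It held 21.4% of the counts under that symbol. With overexpression it was at 10.1, 7.22 and 8.85 CPM and in that control at 5.61, 6.39 and 9.16 CPM, which overlap. With assembled transcripts added, the MXD4 changes were 1.29 in the knockdown and -0.04 with overexpression. Between the controls MXD4 then passed, at 0.76 (adjusted p = 0.00165), in place of 0.51 (adjusted p = 0.0671).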

How the results depend on the processing

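Of 860 values of members under alternatives, 799 kept their direction and side of the threshold, 22 lost and 32 gained a call, and 7 reversed; the cause was not tested. None of the reversed changes was called. Leaving out 1 library at a time moved the overexpression change of MXD1 between -0.176 and 0.588 and that of MXD4 between -0.349 and 0.026, and the latter was 0.025 without both libraries that stood apart. The knockdown change of MAX ran from -0.36 to 0.002. The differences of the arms ran from -0.059 to 0.766 for MXI1 and from -0.282 to 0.106 for MLX.

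Without both libraries that stood apart, 6 members were called with overexpression, 8 in the knockdown, 7 between the arms and 7 between the controls. Over all genes 4462, 4493, 4590 and 5660 were then called in the same order, in place of 2152, 2851, 3054 and 3973. Leaving out 1 library at a time gave 2 to 5 members with overexpression, 2 to 5 in the knockdown, 4 to 6 between the arms and 3 to 5 between the controls. Over all genes it gave 821 to 3300, 1503 to 3435, 2127 to 3785 and 2560 to 4920. With each arm fitted alone, 1833 genes passed in the knockdown in place of 2851, and comparisons across arms could not be fitted. With limma on log2(FPKM + 1), 41.1% of called genes were higher in the knockdown in place of 51.9%, and 40.2% between the controls in place of 51.6%. The call of MLXIP with overexpression was also lost with limma, without a filter, with filterByExpr, with each arm alone and with assembled transcripts (adjusted p up to 0.091). Deviations of same-numbered libraries correlated at 0.197, 0.131 and 0.008 in the overexpression arm and at -0.006, -0.087 and -0.059 in the knockdown arm. Those of unlike-numbered libraries ran from -0.181 to 0.131 and from -0.081 to 0.103. Such values from 3 replicates per group cannot decide whether the numbers paired the samples. With a replicate block, 2, 2, 5 and 3 members and 1867, 2445, 2770 and 3679 genes passed in the 4 comparisons, and MLXIP had an adjusted p of 0.0576 with overexpression. Members had from 75 (MXI1) to 7911 (MYC) counts per library, and the part of depth in their spread was not tested.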
